A study of Mus musculus with 38 samples.

Results

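Abhd12b and Gm40123 are a pair of mouse genes whose annotated 3′ ends each lie at or close to a copy of MMERVK10C, an endogenous retrovirus (ERV). They were chosen by name, with their difference between Trim28-KO and control brains already known, together with every MMERVK10C-int copy within 50 kb of either gene. The members are 2 of the 55298 genes in the count table and 9 of its 3230 MMERVK10C-int copies, 5 near Abhd12b and 4 near Gm40123, out of 3494634 copies of transposable elements (TEs). Because the difference between KO and control was used to pick them, the values of both genes and of these copies are given as a description, with a log2 fold change and its standard error (SE) and with no test.

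Trim28 encodes a co-repressor that KRAB zinc finger proteins bring to TEs, where it recruits enzymes that write the heterochromatin mark H3K9me3. An MMERVK10C provirus has an internal part, annotated as MMERVK10C-int and often cut into several copies, between long terminal repeats (LTRs) that carry its promoter and its polyadenylation signal. Abhd12b belongs to the alpha/beta hydrolase domain family, whose better known member Abhd12 is a lysophosphatidylserine lipase of the brain. Gm40123 is a long intergenic non-coding RNA (lincRNA) with no known function.

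Read counts came from 5 bulk RNA-seq experiments with 32 libraries. Neural progenitor cells (NPCs) were grown from the forebrain of Rosa26-Cas9 knock-in embryos at embryonic day 13.5. They received lentiviral guide RNAs (gRNAs) to exon 3, 4 or 13 of Trim28 (6 Trim28-KO cultures, 2 per gRNA) or to lacZ (2 control cultures) and were sorted for RFP on day 10. AAV vectors with the same gRNAs were injected into the striatum of Cas9-GFP knock-in mice, which make Cas9 in all cells, and of Stop-Cas9-GFP knock-in mice, which make it after Cre and also received an AAV with Cre under the Synapsin promoter. Each strain gave 1 Trim28-KO animal for each single gRNA, 1 for the 3 gRNAs combined and 1 lacZ control, and neuronal nuclei, marked by H2B-RFP through the Synapsin promoter, were sorted 2 months later. Trim28-fl mice (+/- and +/+) received AAV-Cre in the adult forebrain, again with nuclei marked through the Synapsin promoter and taken 2 months later, and here 4 libraries were labelled Trim28-KO and 4 control. The Emx1-Cre experiment used cortex of animals at 3 months of age. Its 3 Trim28-KO animals were Emx1-Cre +/-; Trim28-fl +/+. The paper's methods give the 3 controls as Emx1-Cre +/-; Trim28-fl +/-, with 1 allele of Trim28 deleted in them too. A figure legend of the paper instead calls the controls Cre-negative, and the sample labels do not settle which holds. Emx1-Cre acts in the excitatory neurons and glia that descend from the dorsal telencephalon, so interneurons, microglia and vessels of the same cortex keep Trim28.

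Total gene counts per library ranged from 8790346 to 25345083, and 3 counts corresponded to between 0.161 and 0.338 CPM (counts-per-million of the normalized library total) across groups. Trim28 itself checked the labels. In NPCs it was at 51.3 ± 14.5 CPM (SD, n = 6) in KO against 180 ± 33.4 CPM (n = 2) in control, a log2 fold change of -1.82 ± 0.25 (SE, edgeR quasi-likelihood adjusted p = 0.031). In the Emx1-Cre cortex it was at 7.82 ± 1.52 against 20.4 ± 1.28 CPM (n = 3 each), a change of -1.39 ± 0.15 (edgeR adjusted p = 0.000378). In sorted nuclei the change was -0.51 ± 0.15 in Cas9-GFP mice (edgeR adjusted p = 0.415) and 0 ± 0.24 in Stop-Cas9-GFP mice (edgeR adjusted p = 1), so KO nuclei of the Stop-Cas9-GFP mice held as much Trim28 RNA as their control. RNA counts do not measure the protein, and the paper reported gene editing and loss of Trim28 protein in neurons of both Cas9 strains. In the Trim28-fl mice Trim28 went against the labels, with 136 ± 7.4 CPM in the libraries labelled KO and 28.3 ± 2.46 CPM in those labelled control (n = 4 each, edgeR adjusted p = 2.74e-06). These groups are therefore named throughout as the libraries labelled KO and labelled control. In 1 Emx1-Cre KO library (animal 76) the gene Gm42418 took 14.1% of all counts, against 1.28 to 4.59% for the top gene of any other library, and its normalization factor was 0.754. All 6 progenitor markers were above 1 CPM in NPCs and all 6 pan-neuronal markers in the sorted nuclei, which also held RNA of other cell types. In the Cas9-GFP and Stop-Cas9-GFP nuclei the 6 pan-neuronal markers summed to 2460 to 2940 CPM, the 8 astrocyte markers to 556 to 938 CPM, the 8 oligodendrocyte markers to 176 to 483 CPM and the 5 endothelial and vascular markers to 7.57 to 15.1 CPM, and of the last Cldn5 was at 0.

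Abhd12b (ENSMUSG00000090121) is a protein-coding gene on the forward strand of chromosome 12, at chr12:70154142-70183887 in GRCm38. The provirus beside it lies on the same strand and begins inside the gene. Its first LTR, RLTR46A_dup61 (chr12:70183634-70183954), shares 254 bases with the last exon, which is 709 bases long (chr12:70183179-70183887). The 5 internal copies follow, of which the longest by far, MMERVK10C-int_dup2481 (chr12:70186341-70189817, 3477 bases), starts 2454 bases past the annotated end of the gene. The second LTR, RLTR46A_dup62, ends at 70190146. The whole element spans 6513 bases and its LTRs, aligned over 322 positions, were 97.5% identical with 8 differences. GENCODE ends Abhd12b within the first LTR, whereas RefSeq extends the gene to 70190096, inside the second LTR.

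Gm40123 (ENSMUSG00000105961) lies on the forward strand of chromosome 3 at chr3:108226787-108240247 and has 3 exons of 71, 92 and 864 bases. Here the provirus lies on the opposite strand. Its LTR RLTR10C_dup332 begins 1738 bases past the gene, followed by MMERVK10C-int_dup548 (chr3:108242410-108243387), which starts 2163 bases past it, MMERVK10C-int_dup549 (chr3:108243379-108245664), the small copies dup550 and dup551, and RLTR10C_dup333. These LTRs were 96.2% identical, with 16 differences over 423 aligned positions. Read in the direction of the provirus, the sequence after RLTR10C_dup332 continues through L1M5_dup2984 and into the third exon of Gm40123 from its 3′ end. That exon also overlaps Gm12501, a processed pseudogene on the strand of the provirus, by 528 bases, and the second exon lies wholly within the SINE B3A_dup16295, again on the strand of the provirus.

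The following sequences show the start of Abhd12b, which bears on where its RNA can begin, and the exon of Gm40123 that consists of a repeat read in antisense. Capitals mark CG dinucleotides. The promoter is a RefSeq window from 250 bases before to 50 bases after a start site in GRCm38 (chr12:70153881-70154180, forward strand). The gene begins at 70154124 in RefSeq and at 70154142 in GENCODE, both inside the window. The exon was read from the same build (chr3:108238670-108238761, forward strand).
Abhd12b promoter: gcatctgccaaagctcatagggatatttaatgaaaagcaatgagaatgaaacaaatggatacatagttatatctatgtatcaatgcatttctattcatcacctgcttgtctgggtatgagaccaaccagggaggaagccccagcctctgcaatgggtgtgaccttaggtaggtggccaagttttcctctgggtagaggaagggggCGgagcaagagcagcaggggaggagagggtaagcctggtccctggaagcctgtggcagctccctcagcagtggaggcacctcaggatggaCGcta
Gm40123 exon 2: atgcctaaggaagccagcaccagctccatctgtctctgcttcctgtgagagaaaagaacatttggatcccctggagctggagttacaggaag
The promoter window of Abhd12b held 2 CG dinucleotides, and 85.9% of the 32851 windows of the same length in the RefSeq table held at least as many. The exon of Gm40123 held none.

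**Figure D1:**
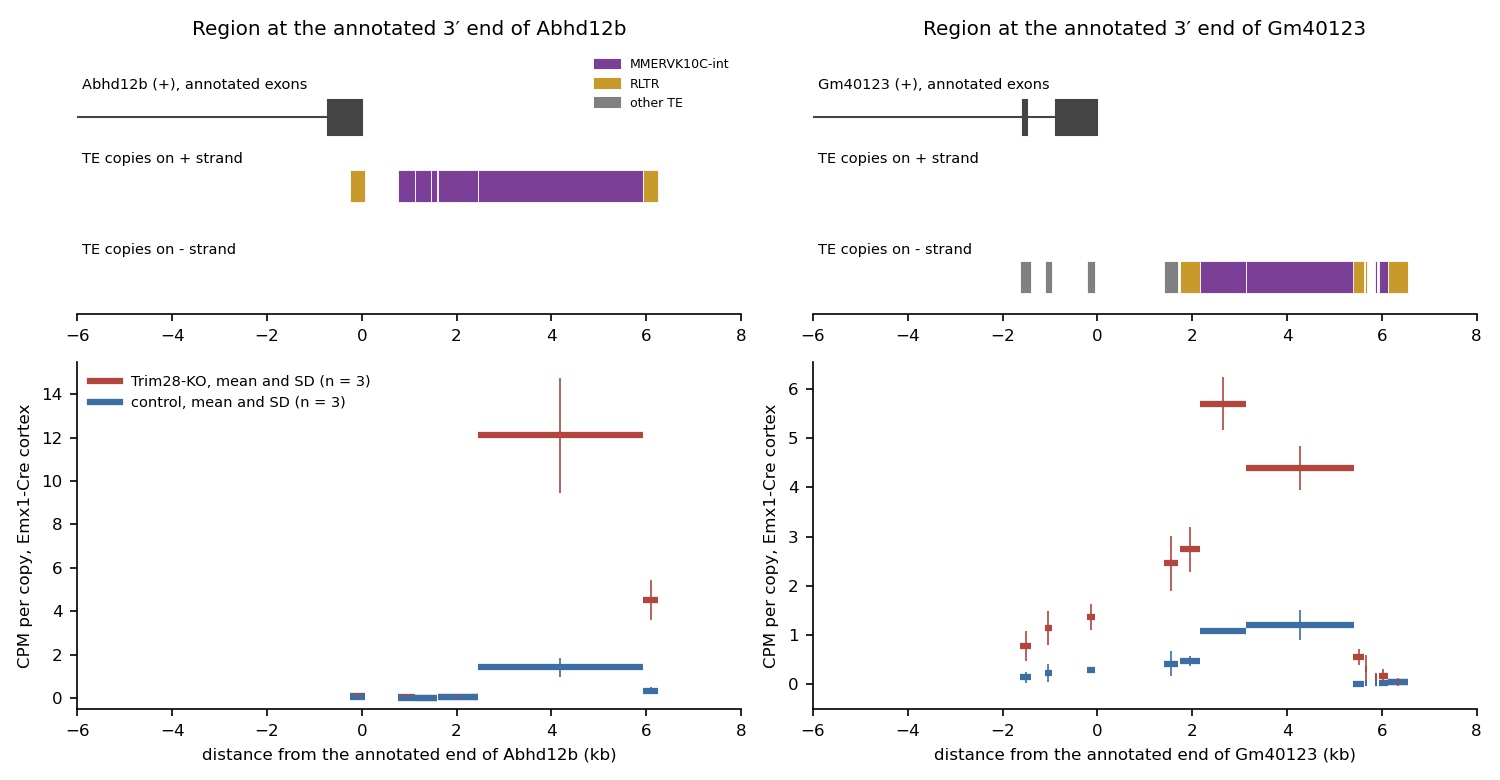
Maps of the region around the annotated 3′ end of Abhd12b (left) and Gm40123 (right), with distance from that end in kb on the x axis. The upper panels show exons and TE copies by strand, and the lower panels show the level of each TE copy in Emx1-Cre cortex in CPM (y axis, lines for the mean and thin bars for the SD of 3 KO and 3 control animals). MMERVK10C-int_dup2481 stands at 12.1 CPM in KO and 1.43 CPM in control, and the copies next to Gm40123 are on the strand opposite to the gene.

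Abhd12b was higher in KO than in control in the Emx1-Cre cortex, at a low level. The KO libraries held 12, 17 and 16 counts (animals 60, 73 and 76) and the control libraries 7, 2 and 2 (animals 64, 65 and 77). The groups did not overlap, and control animal 64 came closest to the KO animals. In CPM the KO mean was 0.942 ± 0.298 against 0.150 ± 0.090 (SD, n = 3 each), a log2 fold change of 2.47 ± 0.47. Without control animal 64 the change was 3.14 ± 0.59. In this comparison 1.33% of the 16271 genes tested were called in either direction, which asks for an adjusted p under 0.05 together with an absolute log2 fold change of more than 0.5, and 0.86% were called higher in KO.

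Gm40123 was also higher in the Emx1-Cre KO animals, and its level was highest there among all groups. The KO libraries held 59, 78 and 30 counts and the controls 24, 14 and 13. In CPM these were 3.35, 4.03 and 2.37 against 0.870, 0.760 and 0.577, so that the groups did not overlap. The change was 2.15 ± 0.27 on the log2 scale, and it lay between 1.96 and 2.31 when any 1 animal was left out. It was not seen in the other gene counts the authors made (TEtranscripts, described further on), which left Gm40123 1, 3 and 1 counts in KO and 0, 2 and 2 in control (0.68 ± 1.12). KO animal 76, with its low normalization factor, was the lowest of the KO animals for Gm40123 and the highest for Abhd12b (1.27 CPM). In bulk tissue, fewer cells of a type and less RNA per cell cannot be told apart. The summed level of the 8 oligodendrocyte markers was lower in the KO animals (2350 to 2510 CPM) than in the controls (2890 to 3140 CPM), as was that of the 5 leptomeningeal markers (12.3 to 19.8 against 24.1 to 30.0 CPM), the 8 inhibitory neuron markers (719 to 802 against 812 to 866 CPM) and the 6 oligodendrocyte progenitor markers (272 to 287 against 289 to 311 CPM). The 6 neural progenitor markers were higher in the KO animals, as both genes were (116 to 146 against 92.7 to 99.4 CPM). The groups overlapped for the excitatory neuron (3320 to 4020 against 3780 to 4040 CPM), pan-neuronal, astrocyte, microglia and endothelial lists, and all markers of each list were detected. Their part in the values of Abhd12b and Gm40123 was not tested.

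MMERVK10C-int copies of both proviruses were also higher in KO in these animals. That difference was part of the choice, so it is no separate result about the genes. MMERVK10C-int_dup2481, beside Abhd12b, held 218, 283 and 118 counts in KO and 46, 17 and 38 in control, a change of 3.06 ± 0.21. The other 4 internal copies beside Abhd12b held between 0 and 3 counts summed over each group. The LTR at the far end, RLTR46A_dup62, held 64, 106 and 56 against 12, 3 and 10 counts (3.62 ± 0.29). Over the whole element, counts were 356, 472 and 242 in KO and 79, 26 and 57 in control.

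Beside Gm40123, MMERVK10C-int_dup548 held 111, 102 and 70 counts in KO and 31, 20 and 24 in control (2.38 ± 0.21). MMERVK10C-int_dup549 held 81, 91 and 49 against 28, 19 and 35 (1.88 ± 0.22). For both copies every KO library was above every control library in CPM. The TE copies annotated on the strand of the provirus, from its LTR nearest the gene through to the second exon, were also higher in KO. The log2 fold changes were 2.52 ± 0.29 for RLTR10C_dup332, 2.62 ± 0.33 for L1M5_dup2984, 2.19 ± 0.36 for B3A_dup16296 within the third exon and 2.24 ± 0.43 for B1_Mur1_dup6496 in the second intron. B3A_dup16295, which covers the second exon, held 40 counts in KO and 9 in control. The TE counts do not keep the strands apart, as described further on. Copies within exons can therefore hold the same reads as the featureCounts value of Gm40123. Of the copies within 50 kb, 33 of 177 near Abhd12b and 86 of 172 near Gm40123 had any count in these libraries, and 2 and 8 passed the filter on low counts.

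**Figure D2:**
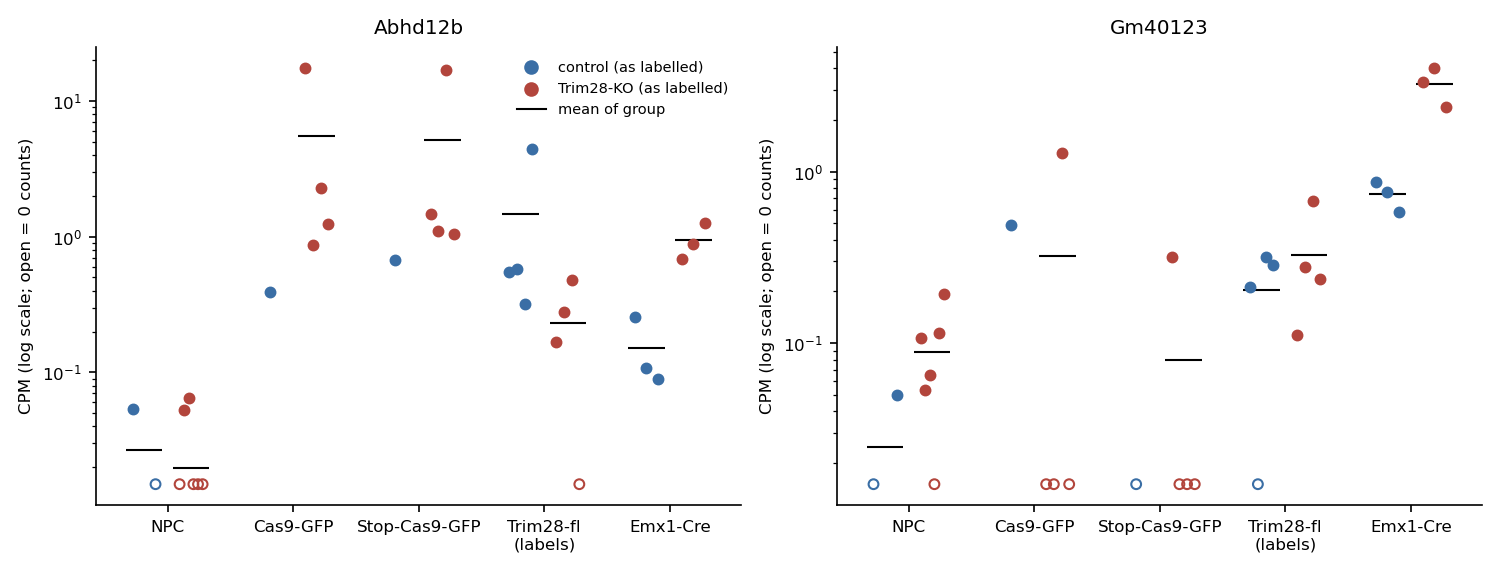
Level of Abhd12b (left) and Gm40123 (right) in each of the 32 bulk libraries in CPM on a log scale (y axis), by experiment (x axis), with points for libraries, black lines for group means and open circles for libraries with 0 counts. Gm40123 separates KO from control in Emx1-Cre cortex, and Abhd12b stands near 17 CPM in 1 KO library of each Cas9 strain.

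In sorted neuronal nuclei Abhd12b was uneven between animals of the same group. In Cas9-GFP mice the KO libraries held 192 counts (gRNA to exon 13), 10 (exon 3), 30 (all 3 gRNAs) and 14 (exon 4), and the control held 4. In Stop-Cas9-GFP mice they held 14, 12, 195 and 11 in the same order, and the control 6. A single animal in each strain therefore carried most of the counts, the one with the gRNA to exon 13 in Cas9-GFP mice and the one with all 3 gRNAs, exon 13 included, in Stop-Cas9-GFP mice. The remaining KO animals were at 0.865 to 2.28 CPM and at 1.04 to 1.48 CPM, above the single controls at 0.392 and 0.677 CPM.

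The change of Abhd12b over all libraries was 3.76 ± 1.72 in Cas9-GFP and 2.91 ± 1.51 in Stop-Cas9-GFP nuclei. Without the highest animal it was 1.87 ± 1.54 and 0.81 ± 1.82. With 1 control per strain, the spread between control animals is not known. The longest copy of the provirus did not have this pattern. MMERVK10C-int_dup2481 held 91, 136, 78 and 88 counts in the Cas9-GFP KO animals and 99 in the control (-0.20 ± 0.46), and 103, 84, 75 and 94 against 66 in Stop-Cas9-GFP mice (0.19 ± 0.56). The animals with the most Abhd12b were not those with the most MMERVK10C-int_dup2481. The same animals did stand out for MTD_dup38420, a TE copy on the reverse strand inside Abhd12b (chr12:70162596-70162832), with 23 and 14 counts against 0 in every other library of these strains. RLTR46A_dup61, the LTR that overlaps the last exon, summed to 12 counts over the KO animals in Cas9-GFP and 7 in Stop-Cas9-GFP mice. It held 0 in the control of each strain.

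In the Trim28-fl mice the libraries labelled control held 13, 10, 7 and 78 counts of Abhd12b (animals trim28fl_797, trim28fl_798, trim28fl_799 and trim28fl_822) and those labelled KO held 3, 5, 10 and 0 (animals trim28fl_794, trim28fl_795, trim28fl_796 and trim28fl_823). Animal trim28fl_822 alone held 78 of the 108 counts in its group. The groups overlapped, since animal trim28fl_799 was at 0.319 CPM and animal trim28fl_796 at 0.480 CPM. The change, labelled KO against labelled control, was -2.62 ± 0.78, from a fit with no filter on low counts because the gene did not pass the filter, and -1.04 ± 0.72 without animal trim28fl_822. MMERVK10C-int_dup2481 differed in the same direction, with 158, 89, 197 and 115 counts in the libraries labelled KO and 267, 235, 219 and 241 in those labelled control (-0.76 ± 0.27). RLTR46A_dup62 changed by -0.95 ± 0.35, and for both copies every library labelled KO was below every library labelled control in CPM. The libraries with less Trim28 RNA thus held more of both copies, though both were well expressed in either group.

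**Figure D3:**
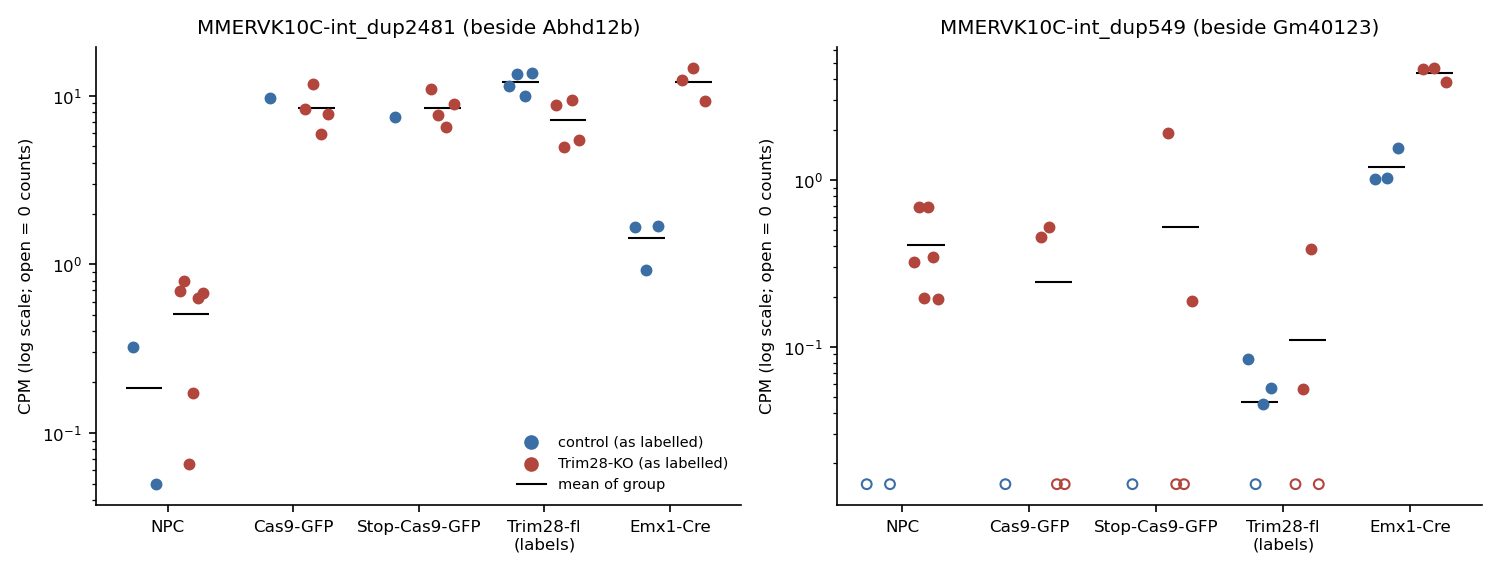
Level of MMERVK10C-int_dup2481 (left, beside Abhd12b) and MMERVK10C-int_dup549 (right, beside Gm40123) in each bulk library in CPM on a log scale (y axis), by experiment (x axis), drawn as for the genes with open circles for 0 counts. Control nuclei of the 2 Cas9 strains and all Trim28-fl nuclei carry MMERVK10C-int_dup2481 at 4.94 to 13.7 CPM, above the 0.923 to 1.69 CPM of the Emx1-Cre controls, and NPC controls hold 0 counts of MMERVK10C-int_dup549.

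NPCs held next to no Abhd12b. The 6 KO cultures summed to 2 counts and the 2 controls to 1, at or under a floor of 3 counts in each library, so no change is read from them. MMERVK10C-int_dup2481 held 13 and 15 counts with the gRNA to exon 3, 1 and 3 with that to exon 4, 11 and 7 with that to exon 13, and 6 and 1 in the lacZ controls (1.43 ± 0.89). The KO and control cultures overlapped. Gm40123 held 0 to 2 counts in every NPC culture, again too few to read a change from. The provirus beside it separated the groups even so. MMERVK10C-int_dup549 held 6, 13, 3, 12, 6 and 2 counts in the KO cultures and 0 in both controls, which makes it at least 2.61-fold higher in KO when each control is set to the floor of 3 counts. MMERVK10C-int_dup548 held 3 to 5 counts in each KO culture and 0 in both controls.

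Gm40123 was scarce in sorted nuclei. In Cas9-GFP mice the animal with all 3 gRNAs held 17 counts, the other 3 KO animals 0 and the control 5. In Stop-Cas9-GFP mice the animal with the gRNA to exon 13 held 3 counts and the other 4 animals 0. In Trim28-fl mice the libraries labelled KO held 2, 5, 14 and 5 counts and those labelled control 5, 0, 7 and 5, which overlap (0.64 ± 0.76, no filter). The copies beside Gm40123 were at a similar low level, and MMERVK10C-int_dup549 reached 18 counts in the Stop-Cas9-GFP animal with the gRNA to exon 13 and at most 8 in any other library of sorted nuclei.

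Ordered by mean level, Abhd12b ran from the Cas9-GFP KO nuclei (5.48 CPM) and Stop-Cas9-GFP KO nuclei (5.14) over the Trim28-fl nuclei labelled control (1.47) to the Emx1-Cre KO cortex (0.942), and from there down to the NPCs (0.0268 in control, 0.0197 in KO). The ranges of neighbouring groups overlapped down to the Emx1-Cre KO cortex, so the first 4 groups were not separated by their spread. They also overlapped between the Cas9-GFP control (0.392), the Trim28-fl nuclei labelled KO (0.231) and the Emx1-Cre control cortex (0.150), and all NPC libraries lay below all Emx1-Cre control libraries. For Gm40123 the Emx1-Cre KO cortex (3.25 CPM) stood above the Emx1-Cre control cortex (0.736), which stood above the Cas9-GFP control (0.490). Every later pair of neighbours in that order overlapped. These levels compare 1 gene between experiments of different tissue and RNA source, and the Trim28-fl groups are in the order of their labels.

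The authors also counted genes with TEtranscripts, which shares reads with several matches among their sources, and both genes changed between the tables. In the Emx1-Cre KO animals Abhd12b went from 12, 17 and 16 counts in featureCounts to 66, 87 and 55 in TEtranscripts, and in the controls from 7, 2 and 2 to 21, 3 and 7. The change in TEtranscripts counts was 3.22 ± 0.35. In the NPC KO cultures its sum went from 2 to 8. In sorted nuclei the sums were 246 and 275 in Cas9-GFP KO, 232 and 256 in Stop-Cas9-GFP KO, 18 and 23 in the Trim28-fl libraries labelled KO and 108 and 118 in those labelled control. Gm40123 went the other way. Its 59, 78 and 30 counts in the KO animals became 1, 3 and 1, and its 24, 14 and 13 in the controls became 0, 2 and 2, so that 2.99% and 7.84% of the featureCounts sums were left. At that level no difference between KO and control was detectable. The pseudogene Gm12501, on the other strand, went from sums of 54 and 15 to 99 and 29 in KO and control.

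**Figure D4:**
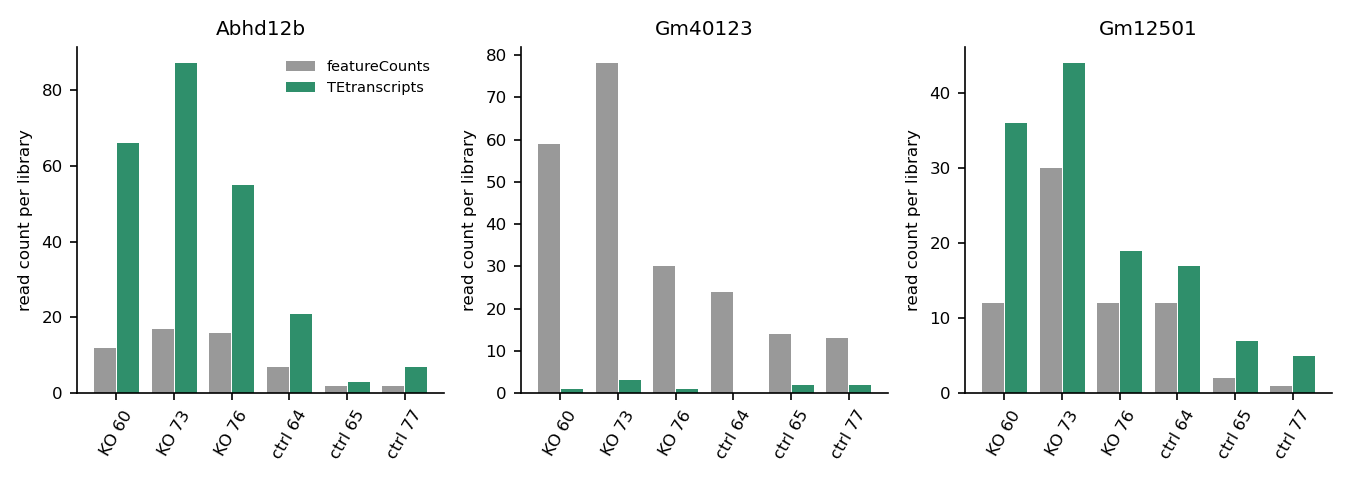
Read count per library (y axis, bars from 0) for Abhd12b, Gm40123 and the pseudogene Gm12501, which overlaps Gm40123 on the other strand, in each Emx1-Cre animal (x axis), from the 2 gene count tables the authors made. TEtranscripts gives more counts than featureCounts for Abhd12b and Gm12501 in the KO animals, and at most 3 counts for Gm40123 in any animal.

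The orientation of the counted reads was examined. The featureCounts call was set for a stranded library. TE copies wholly inside exons of protein-coding genes, with no gene annotated on the other strand, nevertheless held reads in both orientations in its TE table. In the Emx1-Cre libraries the 11128 copies on the strand of their gene had 1069 counts per kb and the 12038 copies on the other strand had 688.5 counts per kb, so the deposited TE counts do not keep the strands apart. Between the gene tables, 1139 of 15176 genes with at least 100 counts in these libraries kept less than 0.2 of their featureCounts sum in TEtranscripts. Of these genes, 94.5% overlapped a gene on the opposite strand, against 48.4% of all genes of that depth, and the median ratio of the tables was 1.01. Gm40123 was among the genes that kept less than 0.2, and Gm12501 overlaps it on the opposite strand. The part of strand in its change between the tables was not tested. Reads of Gm40123 and reads of the opposite strand cannot be told apart in the featureCounts value.

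The other genes around the proviruses were not named in the choice and were tested. Within 500 kb of either gene 51 other genes passed the filter in the Emx1-Cre cortex, and edgeR called 0 of them, beside 1.33% of all genes. At an unadjusted p under 0.05 there were 4, beside 1488 of all 16271 genes. DESeq2 called 252 of all genes, and of the neighbours it called 1. That one was Gm12501, at 1.06 ± 0.444 CPM in KO and 0.196 ± 0.209 CPM in control (log2 fold change 2.29 ± 0.57, edgeR adjusted p = 0.0881, DESeq2 adjusted p = 0.0274). With KO animal 76 or control animal 64 left out, edgeR called 1 neighbour, again Gm12501. Because 528 bases of Gm12501 lie in the third exon of Gm40123, its counts can hold the reads for which Gm40123 was chosen, and it is no independent neighbour. The nearest genes on either side of the loci did not pass the test. Pygl encodes liver glycogen phosphorylase and lies beyond the provirus beside Abhd12b on the other strand, with its 3′ end toward the provirus. It was at 2.74 ± 0.846 and 2.75 ± 0.288 CPM in KO and control (-0.03 ± 0.23). On the other side of Abhd12b the lncRNA Gm48695 changed by 0.25 ± 0.30. Sypl2, a synaptophysin-like membrane protein whose gene begins just upstream of Gm40123 on the other strand, was at 1.33 ± 0.185 and 2.36 ± 0.303 CPM (-0.84 ± 0.23, edgeR adjusted p = 0.137). Psma5, a proteasome subunit beyond the provirus, was at 75.7 ± 2.56 and 78.2 ± 3.2 CPM (-0.05 ± 0.09).

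In the other experiments edgeR called 0 neighbours as well, of 46 tested in NPCs, 51 in Cas9-GFP nuclei, 53 in Stop-Cas9-GFP nuclei and 48 in Trim28-fl nuclei. Of all genes 0.194%, 0%, 0% and 0.0409% were called in these comparisons. With 0 genes called in either Cas9 strain, the 0 neighbours called there say nothing about the neighbours in particular. The NPC share is from a fit that does not pair the cultures, and a fit that pairs them called 136 genes and again 0 neighbours. At an unadjusted p under 0.05 there were 1, 4, 0 and 0 neighbours, beside 752 of 16469, 1560 of 19004, 459 of 18777 and 810 of 17102 genes. DESeq2 called 1 in the Cas9-GFP nuclei, 4933431E20Rik (99.5 ± 6.88 CPM in KO against 58.7 in the single control, 0.76 ± 0.18, edgeR adjusted p = 0.328, DESeq2 adjusted p = 0.0436), and 0 in the remaining 3. In Cas9-GFP nuclei edgeR called 0 of 19004 genes (1560 at an unadjusted p under 0.05, 25 by DESeq2) and in Stop-Cas9-GFP nuclei 0 of 18777 (459, and 1 by DESeq2).

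Enzymes related to Abhd12b were tested as a list. The list of 32 genes for other ABHD proteins, lipid hydrolases and receptors of lysophosphatidylserine and endocannabinoids had 28 members tested in the Emx1-Cre cortex, of which edgeR and DESeq2 called 0 in either direction, beside 1.33% of all genes called by edgeR. An unadjusted p under 0.05 was found for 1 of the 28 and for 1488 of all 16271 genes. Their log2 fold changes ran from -0.36 to 0.38, with a median of -0.03 beside 0.01 over all genes. Abhd12, the lysophosphatidylserine lipase, was at 149 ± 6.69 CPM in KO and 158 ± 5.68 CPM in control (-0.08 ± 0.08). Abhd4, which acts on N-acyl phospholipids, had the highest value of the list, at 41.0 ± 5.8 against 31.5 ± 2.18 CPM (0.38 ± 0.11, edgeR adjusted p = 0.205). Mgll, the main lipase for 2-arachidonoylglycerol, changed by -0.03 ± 0.13, and the receptor Gpr34 by -0.05 ± 0.15. In NPCs, Cas9-GFP, Stop-Cas9-GFP and Trim28-fl nuclei 26, 29, 29 and 27 members were tested. Both tools called 0 there too, beside the shares of 0.194%, 0%, 0% and 0.0409% given above. At an unadjusted p under 0.05 there were 0, 0, 3 and 3 members, beside 752 of 16469, 1560 of 19004, 459 of 18777 and 810 of 17102 genes.

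Genes whose level varied like that of Abhd12b over the 32 libraries were sought among 19545 genes, after subtracting the mean of each experiment from log2 CPM. The highest Pearson r were those of 4930426D05Rik (0.788), Shox2 (0.778), Trpm6 (0.734), Grid2ip (0.717) and Vangl1 (0.711), across 32 libraries that share animals' tissue and preparation. Shox2, a homeobox transcription factor of the developing thalamus and limb, was high in few libraries. It held 116 counts in the Cas9-GFP animal with the gRNA to exon 13 and 0 to 3 in the other KO animals. It held 53 in the Stop-Cas9-GFP animal with all 3 gRNAs and 0 to 1 in the other KO animals, and 78 in the Trim28-fl animal trim28fl_822 and 0 in the others labelled control. These are the 3 libraries in which Abhd12b was high. Trpm6 held 166, 142 and 133 counts in them. Without the first 2 of these libraries r fell to between 0.481 and 0.659 for the 5 genes. Animal trim28fl_822 was kept in this value, and the experiment means were not recomputed, so the remaining r still rests in part on that library. For Gm40123 the highest r were those of Gm47446 (0.707), Gm44007 (0.702), Rdh16 (0.696), Armc10 (0.656) and Gm26653 (0.643). Among the Cas9-GFP KO animals all 5 were highest in the animal with all 3 gRNAs, which held 17 counts of Gm40123. That animal held 39, 14, 7, 370 and 84 counts of them, in the order given. The other KO animals of this strain held 9 to 12, 0, 0 to 1, 164 to 251 and 19 to 36. No r was computed without that animal, so these values rest in part on it. The retinol dehydrogenase gene Rdh16 held 45, 46 and 22 counts in the Emx1-Cre KO animals and 6, 8 and 6 in the controls. Gm47446 held 15, 13 and 15 against 3, 6 and 3, and Gm44007 held 0 in every Emx1-Cre library. The groups overlapped for Armc10 (325, 342 and 212 against 408, 267 and 350) and Gm26653 (16, 22 and 27 against 37, 23 and 22).

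Single-nuclei RNA-seq of 4 of the Emx1-Cre animals (KO 60 and 73, control 64 and 65) gave the UMIs of both genes by cell type. After filtering, 13671 nuclei remained, between 3065 and 3609 per animal, and pairs of animals shared 0 to 20 cell barcodes. With 2 animals per group, which are also animals of the bulk experiment, values are given per animal with exact 95% Poisson intervals that cover counting error only, and with no test. Clusters were named from markers (Slc17a7 among those for excitatory neurons), no doublet caller was run, and free RNA in the droplets was not estimated. The 10x counts assign reads to the strand of the gene and include introns.

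Most UMIs of Gm40123 lay in excitatory neuron-like nuclei, which also held most UMIs of all genes. They held 116 and 139 UMIs of Gm40123 in the KO animals (4.42 CPM, which here are UMIs-per-million of all UMIs in these nuclei of the animal, interval 3.65 to 5.30, and 5.25, interval 4.41 to 6.20) and 67 and 66 in the controls (3.02, 2.34 to 3.83, and 2.89, 2.23 to 3.67). Both KO animals were above both controls, but the interval of KO 60 overlapped slightly with those of both controls. Of these nuclei, different clusters held the largest share in the animals, with 997 and 888 nuclei of clusters 0 and 1 in KO 60, 987 and 1077 in KO 73, 808 and 532 in control 64 and 861 and 569 in control 65. Cluster 5, also excitatory neuron-like, held 163 and 77 nuclei in KO 60 and KO 73 and 269 and 273 in controls 64 and 65. The part of these shares in the level over all excitatory neuron-like nuclei was not tested. Within cluster 0 Gm40123 was at 4.15 and 4.53 CPM in KO and 2.20 and 2.36 in control, and within cluster 1 at 5.45 and 5.96 against 5.15 and 4.29. Astrocyte-like nuclei were ordered the other way, with 3 and 7 UMIs in KO (2.45 and 5.91 CPM) and 13 and 9 in control (9.92 and 11.2). Here the intervals of both KO animals overlapped those of both controls, so no difference is read from these counts. Inhibitory neuron-like nuclei held 3 and 9 UMIs in KO and 11 and 5 in control, which overlap. Microglia-like nuclei held 0 UMIs of Gm40123, at a median depth of 1813 UMIs per nucleus, where a count of 0 allows between 6.35 and 13.0 CPM per animal, so a level like that of the neurons was not detectable in them.

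Abhd12b was rarer. Excitatory neuron-like nuclei held 18 and 17 UMIs in the KO animals (0.686 and 0.642 CPM) and 11 and 10 in the controls (0.496 and 0.438), and all 4 intervals overlapped. All other nuclei together held between 1 and 3 UMIs per animal. Trim28 in excitatory neuron-like nuclei was at 6.33 and 6.72 CPM in KO and 8.56 and 7.0 in control. RNA counts do not measure the protein, which the paper found by staining to be missing from nearly all pyramidal neurons of the KO cortex.

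**Figure D5:**
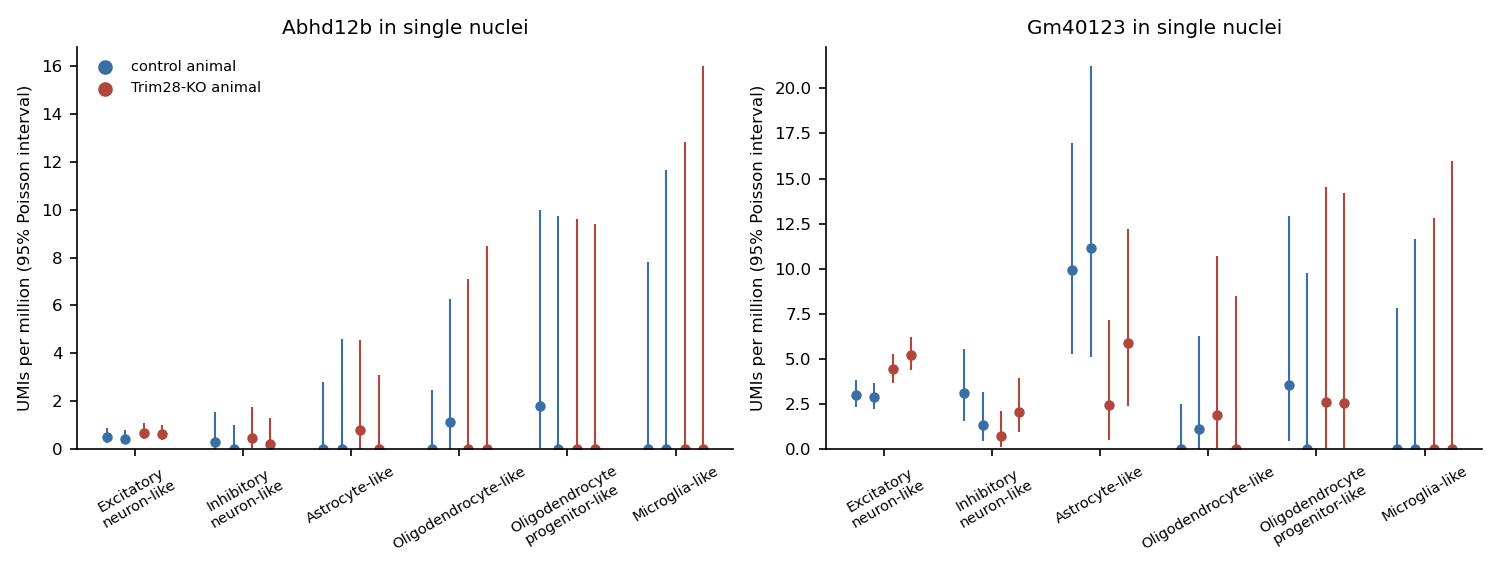
Level in CPM (UMIs-per-million) of Abhd12b (left) and Gm40123 (right), y axis, in the nuclei of each cell type (x axis), with 1 point per animal and vertical lines for the exact 95% Poisson interval of the count. Gm40123 in excitatory neuron-like nuclei is at 4.42 and 5.25 in the KO animals and 3.02 and 2.89 in the controls, and the rarer types have wide intervals.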

How the data were processed

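Stranded poly-A reads of the bulk libraries were aligned by the authors to GRCm38 with STAR (2.6.0), and the deposited files hold raw counts per gene, per TE copy and per full-length element from featureCounts (Subread 1.6.3, uniquely mapped reads, strand setting reversed per the file headers), and gene counts from TEtranscripts in its multi mode. For nuclei the authors deposited UMI counts from Cell Ranger (3.0) with introns included. The matrix of H3K9me3 CUT&RUN coverage in NPCs, 1 library per antibody, was not used here.

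The members, gene lists and tests were chosen with earlier results of these data known. Symbols came from GENCODE (54495 of 55298 genes matched), and RefSeq sequences were of the same build. A further 6 columns of the TE table could be matched to none of the samples and were left out, and columns named flexcas in the count tables were taken as the Stop-Cas9-GFP samples, since their gRNA names match and no other sample set is left.

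Each experiment was fitted alone in edgeR 4.0.16 (R 4.3.3, limma 3.58.1) with filterByExpr, TMM factors and the quasi-likelihood test, with TE copies on the library sizes and factors of the genes. A call needed an adjusted p (Benjamini-Hochberg) below 0.05 with an absolute log2 fold change of more than 0.5. CPM are counts scaled by the normalized library size, and the SE is that of the log2 fold change. Members that did not pass the filter take their log2 fold change from a fit with no filter. DESeq2 1.42.0, other factors, no filter, TEtranscripts counts and leaving out each library in turn were the alternatives. The fit was tested on simulated counts. Named genes were Trim28, both members, called neighbours within 500 kb and the nearest tested gene on each side, called list genes, and the 5 genes of highest Pearson r with each member (prior count 2, at least 1 CPM in 3 libraries). Gm12501, 4933431E20Rik, MTD_dup38420 and the further genes with values in the text were named after their values were seen. Pygl, Sypl2, Psma5 and Gm48695 were the nearest tested genes.

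NPC cultures carry numbers in 2 series, each with 1 culture per gRNA and 1 control. Deviations from group means correlated at r = 0.535 to 0.706 for all 6 pairs of groups, so the series were taken to pair the cultures. The main NPC fit left this pairing out. A fit with the series as a replicate block is given as an alternative at the end. Where nothing in the labels says that samples are separate animals or cultures, p-values measure only the spread between these samples.

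Nuclei within 3 median absolute deviations of log10 detected genes were clustered in Seurat 5.3.0 (2000 variable genes, 20 components, resolution 0.1, seed 42). The Trim28-fl groups were kept as labelled.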

Additional observations from a re-analysis of the deposited data

Results flagged for a closer look

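In groups of 4 to 10 libraries the gap of the highest or lowest library was compared with the range of its group by Dixon's criterion, over the 25 groups in which the highest library held at least 5 counts, for both genes and for MMERVK10C-int_dup2481, dup548, dup549 and RLTR46A_dup62. For normally distributed values chance flags about 1 group in 20. Low counts do not follow that distribution, so the number of flagged groups is not read against this rate. In 6 groups the highest library stood apart. For Abhd12b these were the Cas9-GFP animal with the gRNA to exon 13 (17.5 CPM, the others 0.865 to 2.28), the Stop-Cas9-GFP animal with all 3 gRNAs (17 CPM, the others 1.04 to 1.48) and the Trim28-fl animal trim28fl_822 of the libraries labelled control (4.42 CPM, the others 0.319 to 0.574). Shox2 and Trpm6 were high in the same 3 libraries, and their part in this was not tested. For Gm40123 it was the Cas9-GFP animal with all 3 gRNAs (1.29 CPM, the others 0). For MMERVK10C-int_dup549 these were the Stop-Cas9-GFP animal with the gRNA to exon 13 (1.90 CPM, the others 0 to 0.189) and the Trim28-fl animal trim28fl_796 of the libraries labelled KO (0.384 CPM, the others 0 to 0.0555).

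With the labels taken as given, copies beside Abhd12b differed in opposite directions between experiments, with every library of one group on one side. MMERVK10C-int_dup2481 changed by 3.06 in Emx1-Cre cortex and by -0.76 in Trim28-fl nuclei, labelled KO against labelled control. RLTR46A_dup62 changed by 3.62 in Emx1-Cre cortex and -0.95 in Trim28-fl nuclei. Its fitted value in Cas9-GFP nuclei, 1.65 ± 2.46, stands against 2 counts in the single control, under the floor of 3 counts, and no change is read from it. These differences between experiments were not tested, and Trim28 went against the labels in the Trim28-fl libraries. Compared by Trim28 RNA in place of the labels, the libraries with less of it held more of both copies there. The paper observed no ERV activation after Trim28 deletion in adult neurons of these mice. The part of Trim28 in the level of these copies was not tested.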

How the results depend on the processing

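Under alternative processing 182 values were labelled as unchanged and 54 as moved. For the log2 fold changes of both genes the limit was the spread between libraries of a group. For counts of calls and copies it was a fixed ratio to the main count, or a move to or from 0. Many of the unchanged values were counts of 0 neighbours or 0 list genes in both fits. In the Emx1-Cre cortex, Abhd12b changed by 3.22 with TEtranscripts counts and by 2.20 to 3.14 with 1 animal left out (3.14 without control 64), and Gm40123 by 1.96 to 2.31 with 1 animal left out. With TEtranscripts counts Gm40123 was at 0.68 ± 1.12 on at most 3 counts per animal, which gives no direction. Abhd12b changed by 1.87 to 4.12 in Cas9-GFP and 0.81 to 3.25 in Stop-Cas9-GFP nuclei with 1 KO animal left out, and by -2.70 to -1.04 in Trim28-fl nuclei, where -1.04 is the value without animal trim28fl_822, a fit added after the data were seen. With TEtranscripts counts and no filter, also added later, the fitted values in NPCs went from -0.28 to 1.41 for Abhd12b and from 1.44 to -0.65 for Gm40123, both signs turning on 0 to 2 counts per culture, from which no change is read. In Trim28-fl nuclei Gm40123 went from 0.64 to -0.44, on 0 to 3 counts. In Cas9-GFP nuclei it went from -0.56 to 0.43, and was -0.17 to -0.16 with 1 of the 3 KO animals at 0 counts left out, while without the KO animal that held its 17 counts it did not pass the filter.

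Counts of called genes moved more. With no filter they were 131 in Cas9-GFP, 18 in Stop-Cas9-GFP, 19 in Trim28-fl and 546 in Emx1-Cre samples, with DESeq2 150 in NPCs, 25, 1 and 38 in the first 3 in vivo sets, and with TEtranscripts counts 4, 1 and 11 in these 3. Leaving out 1 library gave 2 to 58 genes in NPCs, 0 to 7 in Cas9-GFP, 5 to 8 in Trim28-fl and 104 to 344 in Emx1-Cre samples (344 without KO animal 76), and 52 to 265, 86 to 1061, 8 to 18, 0 to 10 and 335 to 491 TE copies in the 5 experiments in the order of NPC, Cas9-GFP, Stop-Cas9-GFP, Trim28-fl and Emx1-Cre. Of the neighbours, DESeq2 called 1 in Cas9-GFP and 1 in Emx1-Cre samples, and 0 to 1 were called with 1 Emx1-Cre animal left out (Gm12501, without KO 76 or without control 64). The causes of these shifts were not tested.

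With the number series of the NPC cultures as a replicate block, 136 genes and 411 TE copies were called in place of 32 and 193, and no neighbour or list gene was among them. Besides these counts the block was read out only for both members, at -0.27 ± 1.68 for Abhd12b and 1.43 ± 1.41 for Gm40123, from which no change is read. Windows of 10 and 20 kb held all 9 MMERVK10C-int copies. Depth limits both genes, since Abhd12b had at most 17 counts in an Emx1-Cre library and Gm40123 at most 17 in a library of sorted nuclei, and control animals were single in both Cas9 strains.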
